A study of Mus musculus with 33 samples.

Results

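The genes described here encode S100 proteins and comprise S100a1, S100a3, S100a4, S100a6, S100a8, S100a9, S100a10, S100a11 and S100a13, 9 of the 24421 genes counted. They were taken by gene symbol, and the set was chosen by the rise of S100a8 and S100a9 in CRE+ alveolar macrophages (AMs) over CRE- AMs in these same samples. Member values in those comparisons are therefore given as a description, with no p-value, and how many members passed the call there is no evidence about the set.

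The study's 33 bulk RNA-seq samples held Kupffer cells (KCs, liver-resident macs) or AMs (macs of the lung airspace), sorted from C57Bl/6 mice aged 6 to 8 weeks, females and males mixed. Every group carries loxP-flanked Zeb2 alleles (Zeb2fl/fl), and the CRE- KCs (n = 6) and CRE- AMs (n = 5) came from littermates with no Cre transgene. Zeb2 encodes a transcription factor that mostly acts as a repressor. CRE+ KCs came from Clec4f-crexZeb2fl/fl mice and were sorted as Tim4+ or Tim4- (n = 6 each), and CRE+ AMs came from Itgax-crexZeb2fl/fl mice and were sorted as CD11b- or CD11b+ (n = 5 each). No agent was given to any group.

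As models these groups have limits that the study's methods and text state. The Clec4f promoter also drives Cre in a minor B cell population, and the Itgax promoter in other CD11c-expressing cells. CRE+ cells are a mixture in which some retained Zeb2. The recombined allele still makes a shortened transcript, so counts over the Zeb2 gene do not check the deletion. Zeb2 had 170 to 208 CPM (read counts scaled to library depth) in CRE- AMs, 85.0 to 114 in CD11b- AMs and 50.7 to 70.2 in CD11b+ AMs, against 230 to 338 in CRE- KCs, 145 to 210 in Tim4+ KCs and 148 to 192 in Tim4- KCs. The genes used in the sort followed the labels, with Timd4 at 281 to 438 CPM in Tim4+ and 0.229 to 8.19 CPM in Tim4- KCs, and Itgam, encoding CD11b, at 13.4 to 22.7 CPM in CD11b- and 235 to 282 CPM in CD11b+ AMs.

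Library depth ranged from 9837240 to 24332306 reads on genes, and the shallowest library was replicate 1 of the Tim4- KCs. The labels do not state that samples came from separate mice, so p-values measure the spread between these samples. In bulk samples a lower share of cells that make a transcript and less transcript in each cell cannot be told apart. KC markers (4 genes) summed to 8698 to 22817 CPM in KCs and to at most 12.4 CPM in AMs, while mac markers (5 genes) were detected in every group. More than 100 reads of 4 Y-linked genes were counted in 2 of 6 samples of each KC group, and no AM sample reached that number.

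S100 proteins are small calcium sensors built around a pair of EF-hand motifs. Most form dimers that expose a binding surface when calcium rises and then dock on annexins, cytoskeletal proteins or enzymes. S100A8 and S100A9 pair into calprotectin, an abundant cytosolic complex of neutrophils and inflammatory monocytes that sequesters zinc and manganese and, once released, acts on Toll-like receptor 4 and the receptor RAGE. In resting tissue macs calprotectin is generally scarce.

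All 9 members lie on mouse chromosome 3 (GRCm38, GENCODE M21), in a cluster of 7 and, 2824766 bases further on, a pair. Each is annotated as protein coding. The cluster runs from S100a1 (90511034 to 90514392, minus strand) and S100a13 (90514435 to 90524581, plus strand), which stand head to head with 42 bases between them, through S100a3 (90560578 to 90602702), S100a4 (90603771 to 90606045) and S100a6 (90612882 to 90624181) to S100a8 (90668978 to 90670035) and S100a9 (90692632 to 90695721, minus strand). S100a11 (93520488 to 93526287) and S100a10 (93555080 to 93564643) form the pair. Whether counting used strand is not given in the sources used here, so reads from the facing ends of S100a1 and S100a13 may not be fully separated, and reads of S100a11 may be shared with a processed pseudogene copy.

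S100a8 and S100a9, the calprotectin genes, showed the widest range of all members. The S100a8 level was 4.48, 4.65, 6.10, 4.52 and 2.81 CPM in the 5 CRE- AMs. It was 366, 466, 908, 1244 and 611 CPM in CD11b- AMs, and 5235, 4380, 4098, 4219 and 4389 CPM in CD11b+ AMs. The 3 AM groups did not overlap, and each CRE+ AM sample lay far above every CRE- AM. In KCs the S100a8 level had a median of 0.311 CPM (0.199 to 0.731) without CRE, 0.218 CPM (0.0455 to 0.725) in Tim4+ KCs and 0.414 CPM (0 to 1.24) in Tim4- KCs, and these 3 groups overlapped one another.

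S100a9 followed the same order in CRE+ AMs but not in the controls. Its level was 0, 0.245, 0.185, 0 and 0.0511 CPM in CRE- AMs, 10 reads in all. It was 262, 321, 634, 819 and 504 CPM in CD11b- AMs and 4254, 3466, 3223, 3606 and 3869 CPM in CD11b+ AMs. Again the CRE+ groups overlapped neither each other nor the controls. In KCs the medians were 0.208 CPM (0.0863 to 0.731) without CRE, 0.278 CPM (0.0455 to 0.805) in Tim4+ and 0.413 CPM (0 to 4.99) in Tim4- KCs. The highest KC value was 50 reads in replicate 1 of the Tim4- KCs, a library with no S100a8 read at all.

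As a description, the fitted log2 fold change of S100a8 was 7.31 (SE 0.32) for CD11b- AMs over CRE- AMs and 9.93 (SE 0.35) for CD11b+ AMs over CRE- AMs. For S100a9 the same differences were 12.29 and 15.13. These sizes rest on 10 S100a9 reads in CRE- AMs, where 2 of 5 libraries had none. In order of mean S100a8 level, CD11b+ AMs (4464 CPM) stood above CD11b- AMs (719 CPM), CRE- AMs (4.51 CPM) and the KC groups (0.282 to 0.487 CPM), and only the KC groups did not differ beyond their spread. For S100a9 the order was CD11b+ AMs (3684 CPM), CD11b- AMs (508 CPM) and then Tim4- KCs, Tim4+ KCs, CRE- KCs and CRE- AMs (0.0961 to 1.14 CPM), whose ranges overlapped. Together S100a8 and S100a9 took 0.658% to 0.838% of all reads on genes in CD11b+ AMs, 0.0635% to 0.204% in CD11b- AMs and at most 0.000643% in CRE- AMs.

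**Figure D1:**
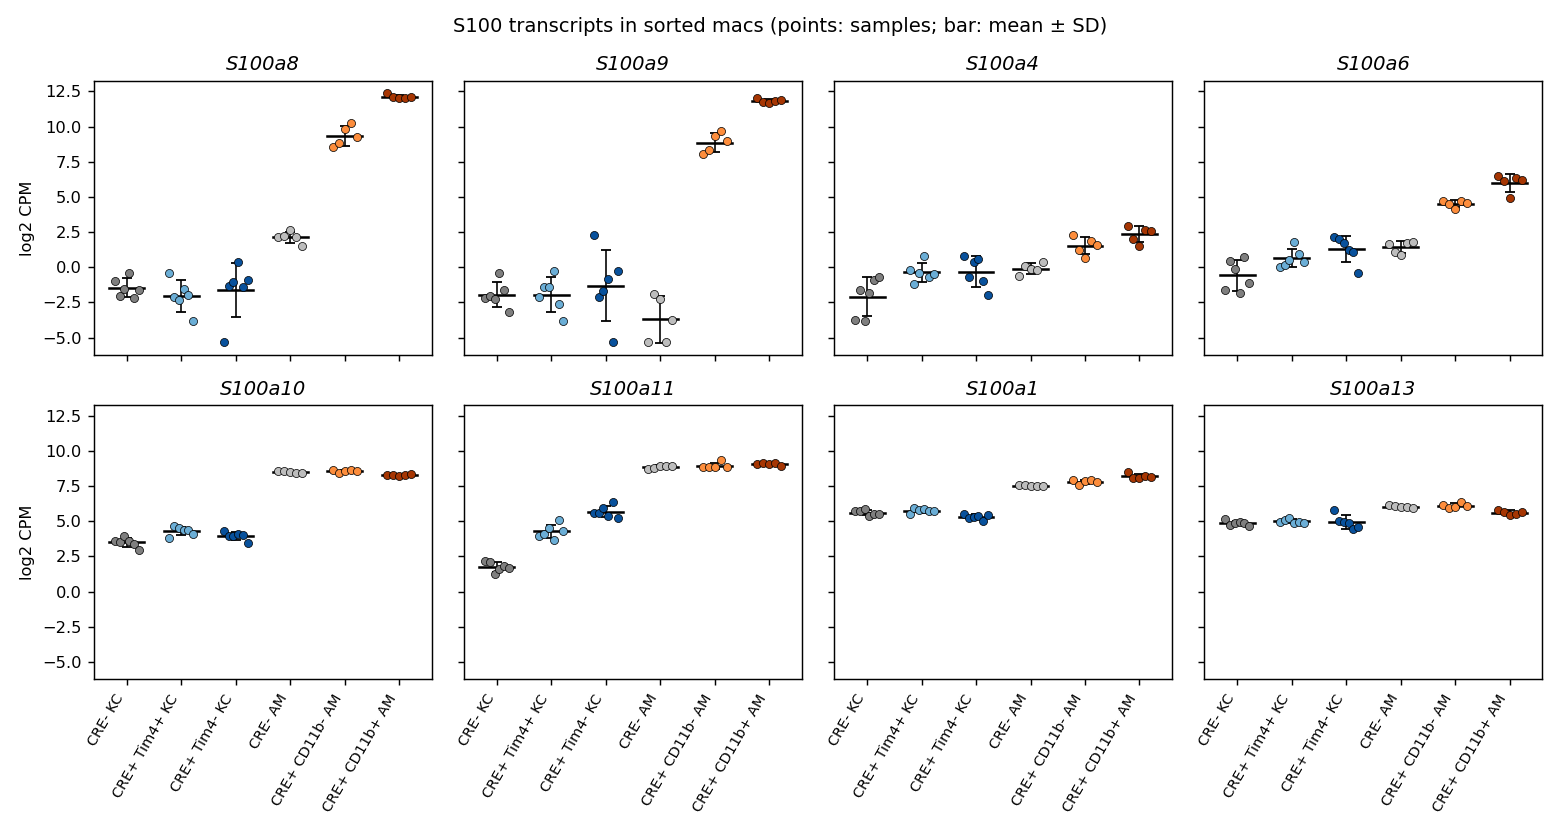
Level of each S100 member (log2 CPM, y axis) in the 6 groups (x axis), where points are samples and bars give the mean ± SD. S100a8 and S100a9 are high in the 2 CRE+ AM groups (means of 719 and 4464 CPM for S100a8), S100a11 climbs over the 3 KC groups (3.47, 20.3 and 53.2 CPM), and S100a13 stays within 21.3 to 82.6 CPM in every sample.

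The balance of the calprotectin pair differed between groups. In CRE- AMs the reads of S100a8 and S100a9 were 100 and 0, 95 and 5, 132 and 4, 94 and 0, and 55 and 1. S100a9 thus made up 10 of 486 reads of the pair, 2.06% (exact 95% binomial interval 0.991% to 3.75%, counting error only). In CD11b- AMs there were 0.718, 0.690, 0.697, 0.658 and 0.826 S100a9 reads per S100a8 read, and in CD11b+ AMs 0.812, 0.791, 0.787, 0.855 and 0.882. The ratio was higher in CD11b+ than in CD11b- AMs (geometric means 0.825 and 0.716, log2 difference 0.204, two-sided exact permutation test, p = 0.03175, n = 5 per group), although the ranges overlapped through replicate 5 of the CD11b- AMs. In KCs, where each library had 0 to 23 reads of S100a8, the pooled ratio was 0.745 without CRE, 1.17 in Tim4+ and 1.48 in Tim4- KCs. Of the 90 S100a9 reads in Tim4- KCs, 50 were in replicate 1.

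**Figure D2:**
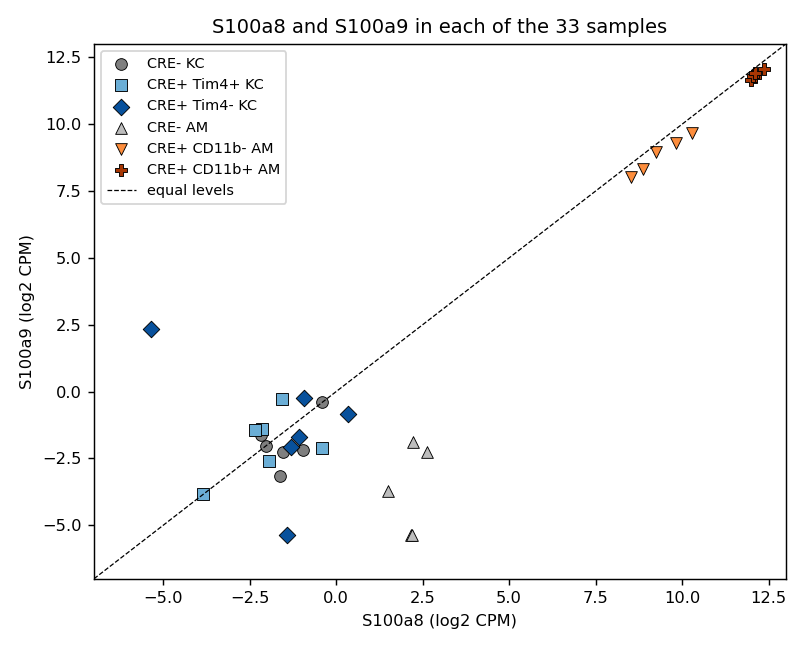
S100a9 (y axis) against S100a8 (x axis), both in log2 CPM, in each of the 33 samples, with the dashed line at equal levels. CRE+ AMs lie close under the line (0.658 to 0.882 S100a9 reads per S100a8 read), whereas CRE- AMs lie far under it (at most 0.0526) and KCs scatter near the lower left corner.

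CD11b+ and CD11b- AMs were compared by a test that the rule did not use, although the same CRE+ samples helped to choose S100a8 and S100a9. S100a8 was higher in CD11b+ AMs by 2.62 on the log2 scale (SE 0.24, adjusted p = 7.34e-08) and S100a9 by 2.85 (SE 0.23, adjusted p = 1.356e-08, quasi-likelihood test of edgeR, Benjamini-Hochberg adjusted over 11573 genes), in 5 of 5 samples. Without replicate 5 of the CD11b+ AMs, the library with the most reads of the neutrophil granule genes Ngp and Camp, the differences were 2.63 and 2.83. Of the 8 members tested, S100a6 was the only other one called (an adjusted p below 0.05 with a change of more than 1 log2 unit), so that 3 of 8 were higher and none lower. Among all genes tested 6.85% were called higher and 3.3% lower. With S100a8 and S100a9 among the 3, this count is no evidence about the set.

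The start regions of these genes are shown because S100a8 and S100a9 moved together in AMs, whereas S100a11 moved in KCs. Each is the part of the 250 bases before the RefSeq start (GRCm38.p6) that lies outside any GENCODE M21 exon, read 5′ to 3′. Capitals mark matches on either strand to CACCTG (the E-box bound by ZEB factors), TTNNGNAA (a C/EBP pattern) or GAGGAA (a PU.1 and ETS pattern). S100a8 is shown from chr3:90668821-90668977 (plus strand), S100a9 from chr3:90695722-90695971 (minus strand), S100a6 from chr3:90612644-90612881 (plus strand) and S100a11 from chr3:93520246-93520487 (plus strand).
S100a8: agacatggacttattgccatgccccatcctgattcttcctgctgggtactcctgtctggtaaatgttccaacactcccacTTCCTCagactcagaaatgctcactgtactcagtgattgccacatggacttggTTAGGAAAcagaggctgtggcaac
S100a9: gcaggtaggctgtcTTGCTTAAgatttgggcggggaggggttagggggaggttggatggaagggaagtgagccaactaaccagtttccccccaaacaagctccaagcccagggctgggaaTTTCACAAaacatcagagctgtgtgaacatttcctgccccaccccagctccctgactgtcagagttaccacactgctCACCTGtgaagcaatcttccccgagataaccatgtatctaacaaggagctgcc
S100a6: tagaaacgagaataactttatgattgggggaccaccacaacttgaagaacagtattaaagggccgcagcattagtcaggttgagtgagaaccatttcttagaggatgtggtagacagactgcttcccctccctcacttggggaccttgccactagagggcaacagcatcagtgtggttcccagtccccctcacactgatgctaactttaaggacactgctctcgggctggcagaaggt
S100a11: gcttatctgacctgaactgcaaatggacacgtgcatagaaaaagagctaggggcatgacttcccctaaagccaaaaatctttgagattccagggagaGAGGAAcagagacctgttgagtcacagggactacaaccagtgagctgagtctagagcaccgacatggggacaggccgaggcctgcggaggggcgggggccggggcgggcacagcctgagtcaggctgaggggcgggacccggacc

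The S100a9 region holds CACCTG from 53 to 48 bases before the start, together with 2 C/EBP pattern matches. The S100a8 region holds a C/EBP pattern match from 117 to 110 bases before the start and 2 matches to the reverse of GAGGAA, of which that from 36 to 31 bases before the start lies in the part not shown, but no CACCTG. S100a11 holds GAGGAA from 153 to 148 bases before its start, and S100a6 holds no match to any of the 3 patterns. None of these matches overlap. Over the 8 members with an entry, which excludes S100a10, CACCTG was found for 2 (S100a9 and 1 of 4 listed starts of S100a3). Of all 32851 promoters of the same length 17.2% held CACCTG, 36.8% the C/EBP pattern and 23.3% GAGGAA. A match is a string in this window and not a measured binding site.

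Because calprotectin is a hallmark of neutrophils, a list of 15 neutrophil marker genes, 14 of them in the count files, was read beside it. The summed level of the list was 87.2 to 115 CPM in CRE- AMs, 426 to 696 CPM in CD11b- AMs and 1252 to 1473 CPM in CD11b+ AMs, so it moved with S100a8 and S100a9. Of the 7 list genes tested, 5 were called higher in CD11b- AMs and 7 in CD11b+ AMs over CRE- AMs, where 3.98% and 9.57% of all genes tested were called higher. Of these, Ltf, Lcn2, Retnlg and Mmp9 had means of 0.0462 to 0.205 CPM in CRE- AMs and entered the test through their CRE+ levels. They could hardly be called lower, so these counts are no evidence about the list. Most of the sum came from Cxcr2, the receptor for neutrophil-attracting chemokines (502 to 646 CPM in CD11b+ AMs), Csf3r, the G-CSF receptor (344 to 391 CPM), Mmp8 (148 to 275 CPM) and Lcn2 (114 to 180 CPM).

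The granule genes of the list did not behave alike. Mpo, Elane and Ctsg had no read in any AM sample, and in CD11b- AMs Prtn3, Camp, Ngp and Cebpe had none either. In CD11b+ AMs Ngp was at 0 to 13.9 CPM and Camp at 0 to 3.50 CPM, both highest in replicate 5. Other granule genes were well above 0 there, Ltf at 11.5 to 24.5 CPM and Mmp9 at 8.35 to 20.5 CPM beside the Lcn2 and Mmp8 levels given above, against 0 to 0.489 CPM of Ltf and 0 to 0.289 CPM of Mmp9 in CRE- AMs. In CD11b- AMs Ltf was at 1.08 to 2.78 CPM and Mmp9 at 0 to 0.0507 CPM. Retnlg, abundant in mature neutrophils, had 1.59 to 4.73 CPM in CD11b+ and 0 to 0.152 CPM in CD11b- AMs. S100a8 was at 4389 CPM in CD11b+ replicate 5 and at 4098 to 5235 CPM in the other 4 samples.

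The sum of the monocyte markers (9 genes) moved in another way. It was 600.2 to 1061 CPM in CRE- AMs, 81.4 to 178 CPM in CD11b- AMs and 377 to 716 CPM in CD11b+ AMs. Fn1 held most of it, with means of 787, 108 and 328 CPM in these 3 groups. Gene by gene, 7 of the 8 tested were called higher and 1 lower in CD11b+ over CRE- AMs (background 9.57% and 5.68%). All 8 of those tested were called higher in CD11b+ than in CD11b- AMs (background 6.85%). Of these, Ly6c2, Cx3cr1, F13a1, Plac8 and Ms4a4c had means of 0.221 to 0.996 CPM in CRE- and CD11b- AMs. So near the floor they could hardly be called lower in CD11b+ AMs, and neither count is evidence about the list. Vcan was at 0 in both CRE+ AM groups. The part of other cells in the S100a8 and S100a9 levels was not tested.

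**Figure D3:**
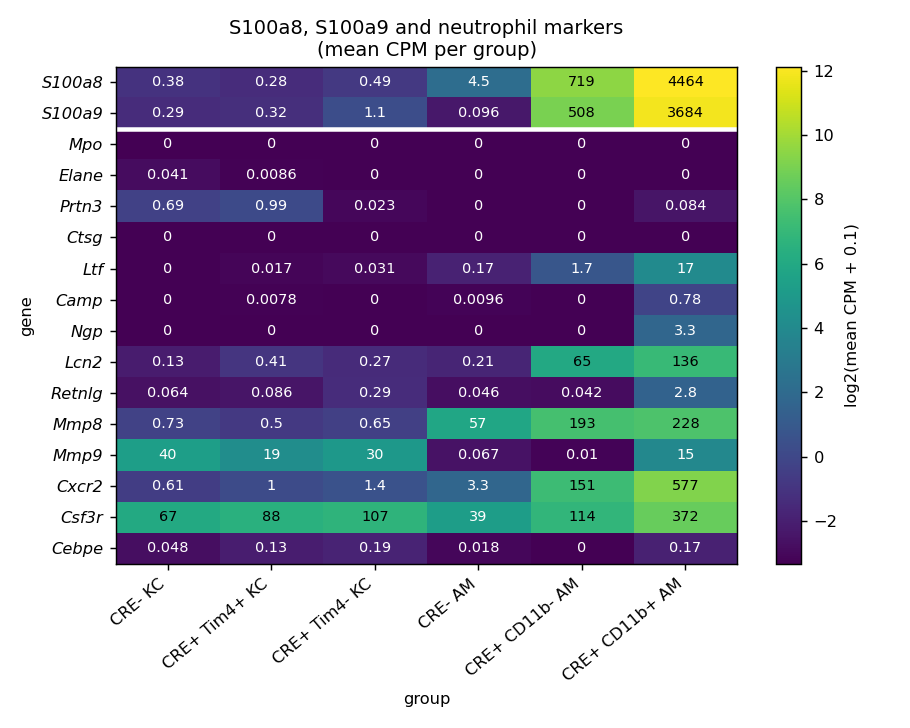
Mean level (CPM, printed in each cell and coloured as log2 of the mean plus 0.1) of S100a8, S100a9 and the 14 neutrophil markers in the count files (rows) in the 6 groups (columns). Mpo, Elane and Ctsg are at 0 in all AM groups, while Cxcr2 rises from 3.27 to 151 and 577 CPM beside S100a8.

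S100a4 and S100a6 lie next to each other in the cluster. S100A4 binds non-muscle myosin and is linked to cell migration, and S100A6 (calcyclin) marks proliferating and stromal cells. The S100a6 level was 3.18, 2.1, 1.85, 3.27 and 3.53 CPM in CRE- AMs, 26.6, 22.5, 17.6, 25.7 and 23.4 CPM in CD11b- AMs, and 88.8, 70, 29.8, 82.3 and 75.1 CPM in CD11b+ AMs. The 3 groups did not overlap, with replicate 3 the lowest in each of them. As a description, S100a6 was above CRE- AMs by 3.05 (SE 0.26) in CD11b- and 4.62 (SE 0.26) in CD11b+ AMs on the log2 scale. Between the CRE+ groups it was higher in CD11b+ AMs by 1.57 (SE 0.22, adjusted p = 1.503e-05, edgeR), or 1.76 without CD11b+ replicate 3.

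S100a4 was scarce throughout. Its level was 0.627, 1.03, 0.878, 0.866 and 1.28 CPM in CRE- AMs, 4.97, 2.33, 1.59, 3.59 and 2.93 CPM in CD11b- AMs, and 7.56, 4.04, 2.83, 6.21 and 6.01 CPM in CD11b+ AMs. Every CRE+ AM lay above every CRE- AM, but the CD11b- and CD11b+ groups overlapped. Their difference of 0.78 (SE 0.34) did not pass the test (adjusted p = 0.07869, edgeR), and without replicate 1 of the CD11b- AMs it did (1.02, adjusted p = 0.03526, with adjusted p from 0.03526 to 0.2634 over all alternatives).

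In KCs S100a6 and S100a4 were near the limit of detection. The S100a6 median was 0.673 CPM (0.261 to 1.64) in CRE-, 1.33 CPM (0.984 to 3.49) in Tim4+ and 2.74 CPM (0.732 to 4.50) in Tim4- KCs. Only Tim4- KCs differed from CRE- KCs by the test (log2 fold change 1.75, SE 0.52, adjusted p = 0.01822, edgeR), with overlapping ranges, and the difference between Tim4- and Tim4+ KCs did not pass (0.72, SE 0.51, adjusted p = 0.4066). S100a4 had medians of 0.284, 0.711 and 0.948 CPM in CRE-, Tim4+ and Tim4- KCs, and neither CRE+ group differed from CRE- KCs by the test (1.45, adjusted p = 0.2413, and 1.66, adjusted p = 0.06698, edgeR).

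S100a11 was the member that changed most in KCs. Its protein binds annexin A1 and takes part in membrane repair and growth control. In CRE- KCs its level had a median of 3.29 CPM (2.33 to 4.53), in Tim4+ KCs 18.6 CPM (12.9 to 33.4) and in Tim4- KCs 48.2 CPM (37.6 to 81.3). The 3 ranges did not overlap, so the lowest Tim4- KC sample stood above the highest Tim4+ sample. Over CRE- KCs S100a11 rose by 2.53 on the log2 scale in Tim4+ KCs (SE 0.24, adjusted p = 3.306e-07, higher in 6 of 6 samples) and by 3.92 in Tim4- KCs (SE 0.25, adjusted p = 4.2e-10, higher in 6 of 6). Between the CRE+ groups it was higher in Tim4- KCs by 1.39 (SE 0.22, adjusted p = 0.000228, quasi-likelihood test of edgeR, adjusted over 12500 genes).

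Even the highest KC sample remained under the lowest AM for this gene. S100a11 was at 411, 434, 491, 484 and 495 CPM in CRE- AMs, 454, 465, 472, 648 and 472 CPM in CD11b- AMs and 525, 551, 526, 561 and 498 CPM in CD11b+ AMs. As a description, the CRE+ AM groups lay within 0.12 and 0.19 of CRE- AMs on the log2 scale, and CD11b+ and CD11b- AMs differed by 0.07 (SE 0.09, adjusted p = 0.5551, edgeR). Whether the change in S100a11 differed between KCs and AMs was not tested.

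Of the 6 members tested in KCs, S100a11 alone was called higher in Tim4+ KCs and none was called lower, where 1.94% and 0.376% of all genes tested were called. S100a11 and S100a6 were called higher in Tim4- KCs over CRE- KCs (background 3.43% higher and 5.39% lower), and S100a11 alone was called in Tim4- over Tim4+ KCs (background 0.44% higher and 5.01% lower). In each of these comparisons S100a11 was the 1 member with groups that did not overlap, against 3.1%, 5.68% and 1.31% of all genes that lay higher in this way. The median log2 fold change of the tested members was 0.90 in Tim4+ and 1.04 in Tim4- KCs over CRE- KCs, against 0.00 and -0.03 for all genes tested. The Tim4+ median lies between S100a10 (0.78) and S100a6 (1.03), and the Tim4- median between S100a10 (0.43) and S100a4 (1.66). S100a6 and S100a4 were near the limit of detection in KCs. S100a4 was called in neither CRE+ group and S100a6 only in Tim4- KCs, so the medians do not show a shift of the set. These 3 comparisons share samples and are not independent.

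Markers of other cells also moved between the KC groups. Monocyte markers summed to 205 to 357 CPM in CRE- KCs, 189 to 516 CPM in Tim4+ KCs and 419.9 to 1018 CPM in Tim4- KCs, with 3 of 7 tested called higher and 1 lower in Tim4- over CRE- KCs (background 3.43% and 5.39%). Liver endothelial markers (7 genes) summed to 583 to 1794, 1033 to 2985 and 336 to 446 CPM, with 6 of 7 called lower in Tim4- KCs than in CRE- KCs. The part of these cells in the S100a11 levels was not tested. Without replicate 1 of the Tim4- KCs, the shallowest library, S100a11 was higher than in CRE- KCs by 3.94, and S100a6 by 1.56.

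S100a10 (p11) departs from its relatives in that its EF-hands are locked without calcium. It forms a tetramer with annexin A2 at the membrane, where it serves as a docking site for plasminogen. The S100a10 level had a median of 11.8 CPM (7.90 to 15.4) in CRE- KCs, 20.9 CPM (14.1 to 25.1) in Tim4+ KCs and 16.1 CPM (10.7 to 19.9) in Tim4- KCs, with overlapping ranges. The difference of Tim4+ from CRE- KCs, 0.78 (SE 0.17, adjusted p = 0.006853, edgeR), passed the test but not the fold limit, and that of Tim4- KCs, 0.43, did not pass (adjusted p = 0.07383). In AMs S100a10 was at 378, 385, 358, 343 and 341 CPM in CRE-, 401, 349.6, 389.5, 392 and 387 CPM in CD11b- and 319.8, 319, 295, 309 and 322 CPM in CD11b+ samples. It was lower in CD11b+ than in CD11b- AMs by a small margin (log2 fold change -0.31, SE 0.06, adjusted p = 0.0002328), and this did not pass with all 33 samples in the fit (adjusted p = 0.08313).

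S100A1, best known from heart muscle, binds the ryanodine receptor and the calcium pump SERCA. The S100a1 level was 189.7, 190.2, 179, 183 and 185 CPM in CRE- AMs, 244, 194, 228, 245 and 218 CPM in CD11b- AMs and 363, 267, 274, 300.4 and 289 CPM in CD11b+ AMs. The 3 groups did not overlap, and CD11b+ AMs exceeded CD11b- AMs by 0.39 (SE 0.08, adjusted p = 0.0007154, edgeR). In KCs it was lower in Tim4- KCs (median 40.5 CPM, 32.8 to 46.1) than in CRE- KCs (49.3 CPM, 42.2 to 57.3, log2 fold change -0.31, adjusted p = 0.02712) and in Tim4+ KCs (53.9 CPM, 44.6 to 60.3, log2 fold change -0.42, adjusted p = 0.008393), with overlapping ranges.

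S100A13 carries FGF1 and interleukin 1 alpha out of cells by a route that avoids the secretory pathway. S100a13 was at 69.6, 66.1, 65.0, 64.4 and 62.1 CPM in CRE- AMs, 69.8, 59.9, 65.5, 82.6 and 69.1 CPM in CD11b- AMs and 55.9, 51.5, 42.6, 45.3 and 49.7 CPM in CD11b+ AMs. CD11b+ AMs were below both other AM groups in every sample, and lower than CD11b- AMs by 0.51 on the log2 scale (log2 fold change -0.51, SE 0.09, adjusted p = 0.0001802, edgeR). In the 3 KC groups the medians were 29.7, 31.0 and 30.0 CPM, and no KC comparison passed the test (adjusted p from 0.6562 to 0.9806). S100a3, a protein of the hair cuticle, had 1 read in all 33 samples and was tested nowhere.

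**Figure D4:**
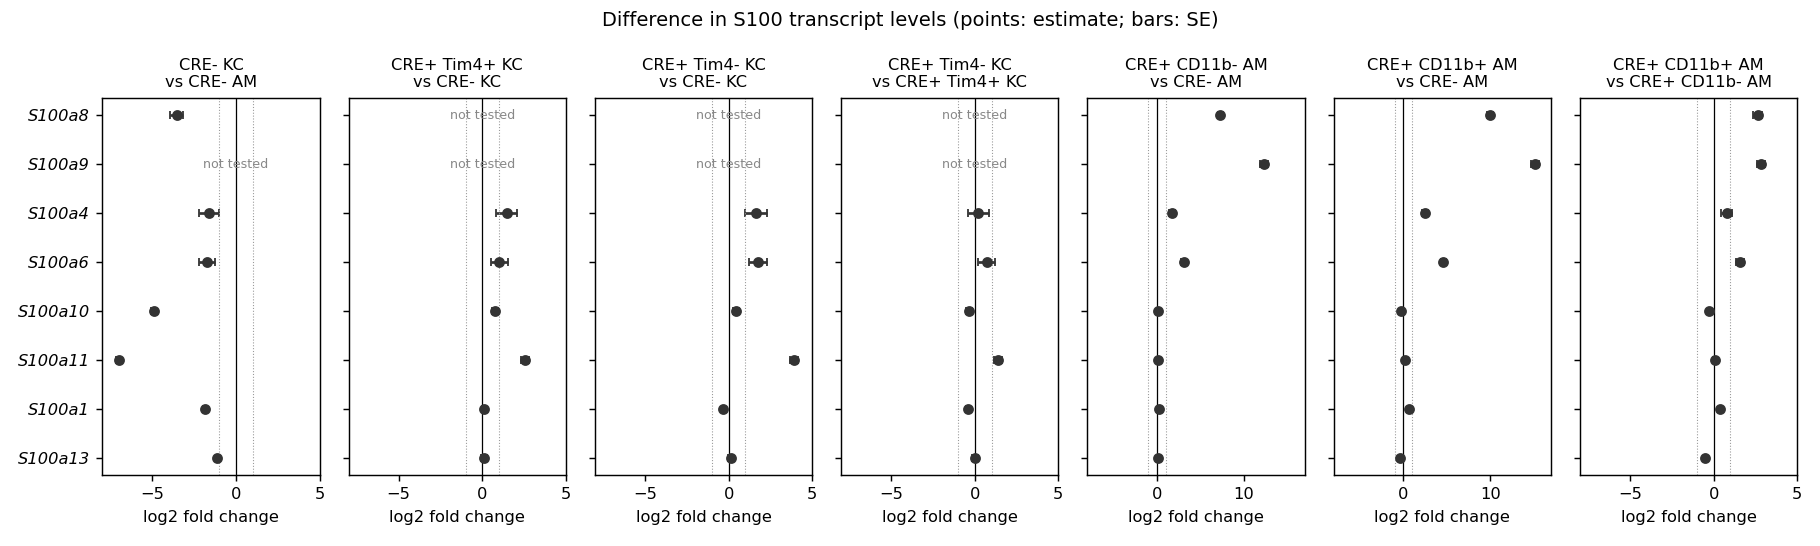
Log2 fold change (x axis, points, with the SE as bars) of 8 S100 members (y axis) in the 7 comparisons, where dotted lines mark an absolute log2 fold change of 1 and the panels of CRE+ over CRE- AMs have a wider axis. S100a11 stands out in the KC panels (2.53, 3.92 and 1.39), and S100a8 and S100a9 in the AM panels.

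Read as a set in AMs, 4 of 8 members tested were called higher in CD11b- AMs than in CRE- AMs (S100a8, S100a9, S100a6 and S100a4) and 5 did not overlap, against 3.98% and 9.42% of all genes tested. The same 4 were called higher in CD11b+ AMs than in CRE- AMs (background 9.57%), while 6 members lay higher and 2 lower without overlap (18.5% and 14.1%). These comparisons chose the set, share their controls, and the counts are not evidence about it. Between CD11b+ and CD11b- AMs, 4 members lay higher and 2 lower without overlap, against 15.3% and 10.6% of all genes. The median of the 8 members was 0.59, against 0.02 for all genes tested. S100a8 and S100a9, which the same CRE+ samples helped to choose, are among these 4 members. Neither this count nor this median is therefore evidence about the set.

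CRE- KCs and CRE- AMs differed for every member that could be tested. All 7 tested members were called lower in KCs and did not overlap, where 12.4% of the genes tested were called lower, 20.9% were called higher and 23.8% lay lower without overlap. S100a4, S100a6 and S100a8, with 1 to 33 reads in each KC library, entered the test through AMs and could hardly be called higher. For them the direction was largely set by the filter, and with at least 10 counts in every sample 4 members were called. S100a9, with 35 reads in 6 KCs and 10 reads in 5 AMs, was not tested. S100a11 differed most, with a mean of 3.47 ± 0.84 CPM (SD, n = 6) for KCs against 463 ± 38.0 CPM (SD, n = 5) for AMs (log2 fold change -7.03, SE 0.15, adjusted p = 3.641e-14, edgeR). S100a10 followed with 11.6 ± 2.45 and 361 ± 19.98 CPM (-4.93, SE 0.13, adjusted p = 4.433e-13), then S100a8 (-3.54, SE 0.39, adjusted p = 1.978e-06).

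The other 4 differences were smaller. S100a1 had 49.4 ± 6.11 CPM in KCs and 185 ± 4.87 CPM in AMs (log2 fold change -1.88, adjusted p = 6.829e-11, edgeR), and S100a13 29.4 ± 3.46 and 65.4 ± 2.76 CPM (-1.12, adjusted p = 5.475e-08). S100a6 (-1.73, adjusted p = 0.007174) and S100a4 (-1.62, adjusted p = 0.02809) rested on 105 and 38 reads in 6 KCs. Without replicate 2 or replicate 5 of the CRE- AMs S100a4 no longer passed (adjusted p = 0.05414 and 0.06788). Tissue and the mouse line that the littermates came from cannot be told apart here. The sex of the mice differed in part between the 2 groups. Leaving out the KC samples with more than 100 Y-linked reads kept all 7 calls.

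Divided by transcript length, members can be set against each other. In CRE- KCs the mean level was highest for S100a1 (73.0 CPM per kb), followed by S100a13 (41.2), S100a10 (16.9) and S100a11 (6.79), with no overlap between neighbours in this order. In Tim4- KCs S100a11 came first with 104 CPM per kb (73.6 to 159), above S100a1 with 59.4 (48.5 to 68.0). In CRE- AMs the order was S100a11 (906 CPM per kb), S100a10 (527), S100a1 (274), S100a13 (91.5) and S100a8 (9.29). In CD11b- AMs S100a8 reached 1479 CPM per kb (752 to 2559) and overlapped S100a11 (983) and S100a9 (979). In CD11b+ AMs S100a8 (9185, 8431 to 10772) and S100a9 (7097, 6210 to 8196) stood apart from all others, the next being S100a11 with 1042 CPM per kb.

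In CD11b- AMs the coefficient of variation between samples was 49.8% for S100a8, 44.8% for S100a9 and 41.8% for the scarce S100a4, and 5.20% to 16.3% for the other tested members. In CD11b+ AMs it was 10.03% for S100a8 and 10.7% for S100a9. The 5 CD11b- AM samples had the same order for S100a8 and S100a9, from replicate 4 with the most to replicate 1 with the least.

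The genes around the cluster put the members in place. Besides S100a16, described next, the files list S100a14, S100a2, S100a5 and S100a7a, which had 7, 0, 9 and 0 reads in all samples. Along the cluster the log2 fold change of CD11b+ over CRE- AMs was 0.68 for S100a1, -0.43 for S100a13, 0.26 for S100a16, 2.49 for S100a4, 4.62 for S100a6, 9.93 for S100a8 and 15.13 for S100a9, given as a description. On the S100a1 side, Chtop, Snapin, Ilf2 and Ints3 lay between -0.05 and 0.20. On the S100a9 side Pglyrp4, which encodes a peptidoglycan recognition protein and reached 4.62 CPM, stood at 9.52 in the same comparison. Its difference between CD11b+ and CD11b- AMs was 3.76, also given as a description. With so low a highest mean, Pglyrp4 was near the floor in the other AM groups and could hardly be called lower in CD11b+ AMs. Npr1, a natriuretic peptide receptor gene not tested in AMs, was lower in Tim4- than in CRE- KCs (log2 fold change -1.92, adjusted p = 0.0001054, edgeR), and Tchh, near S100a11, had a mean of at most 3.18 CPM in any group.

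**Figure D5:**
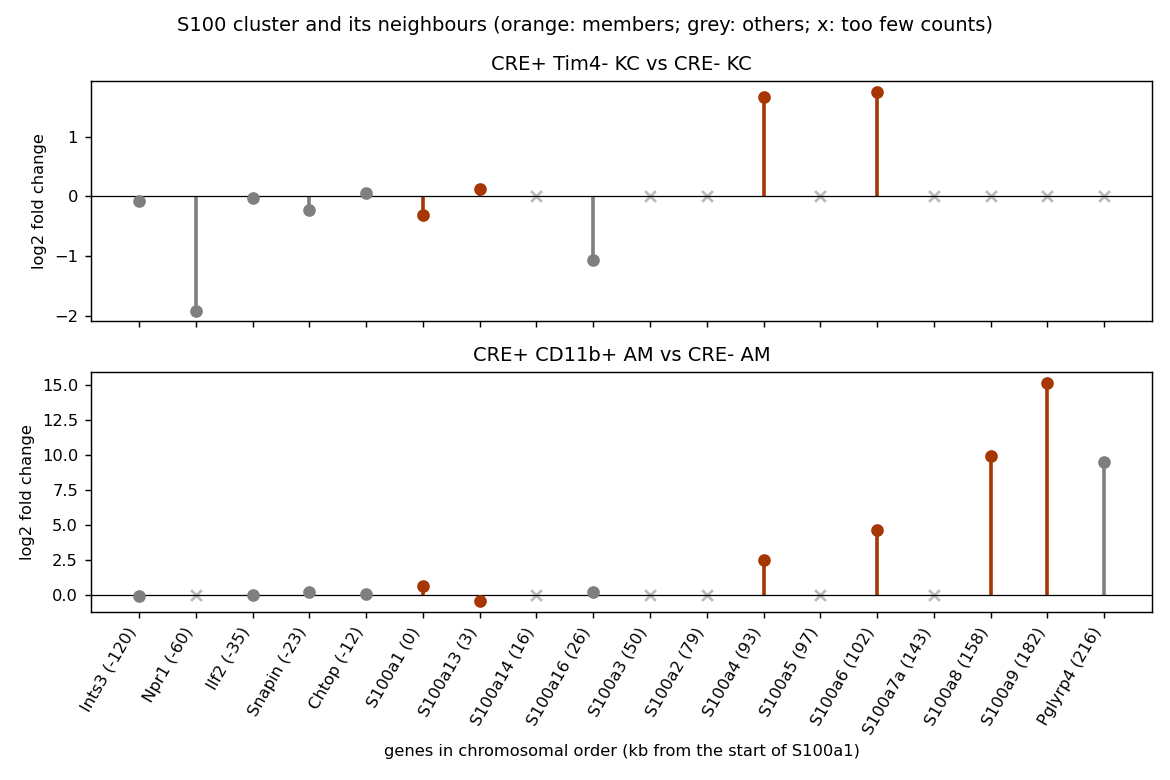
Log2 fold change (y axis) of the genes of the S100 cluster and its neighbours within 100 kb, in chromosomal order with their distance from the start of S100a1 in kb (x axis), for Tim4- over CRE- KCs (top) and CD11b+ over CRE- AMs (bottom). In AMs the values run from 2.49 for S100a4 to 15.13 for S100a9 at 1 end of the cluster, and the neighbour Pglyrp4 is at 9.52. S100a1 (0.68) and S100a13 (-0.43) at the other end lie nearer 0, and Chtop, Snapin, Ilf2 and Ints3 lie between -0.05 and 0.20.

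S100a16 was the only other family gene with enough reads to test, and between the CRE- groups it ran against the members tested. It was at 18.2 ± 7.16 CPM in CRE- KCs and 0.528 ± 0.325 CPM in CRE- AMs (log2 fold change 5.11, SE 0.42, adjusted p = 6.816e-08, edgeR). With 4 to 22 reads in each CRE- AM library, S100a16 entered this test through KCs and could hardly be called lower in them. Tim4- KCs (median 8.62 CPM, 7.08 to 11.1) were below Tim4+ KCs (24.8 CPM, 20.1 to 48.2) in every sample (log2 fold change -1.76, adjusted p = 9.24e-05) and below CRE- KCs (16.7 CPM, 9.49 to 30.3) with overlap (-1.07, adjusted p = 0.003337). Liver endothelial markers fell between the same groups, 7 of 7 from Tim4+ to Tim4- KCs (background 5.01%), and their part in the S100a16 levels was not tested. S100b and S100g had 21 and 15 reads in all, and S100z none.

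Among 12 annexins and other partners of S100 proteins, 8 were called lower and 1 higher in CRE- KCs than in CRE- AMs, where 12.4% of all genes tested were called lower and 20.9% higher. Anxa1, whose product pairs with S100A11, was at 3.69 ± 0.875 CPM in KCs and 750 ± 33.1 CPM in AMs (log2 fold change -7.64, SE 0.14, adjusted p = 1.251e-14, edgeR). Anxa2, the partner of S100a10, was at 68.0 ± 8.17 and 2402 ± 148 CPM (-5.11, SE 0.09, adjusted p = 1.034e-14), and Ahnak, a scaffold bound by that complex, at 7.46 and 224 CPM (-4.88, adjusted p = 1.328e-13). Anxa3 was the 1 partner called higher in KCs.

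In KCs none of the 12 partners was called in either CRE+ group over CRE- KCs. Anxa2 was higher in Tim4+ KCs by 0.72 (adjusted p = 0.001768, edgeR) and in Tim4- KCs by 0.59 (adjusted p = 0.003365), both under the fold limit, and Anxa1 did not pass in either (adjusted p = 0.1182 and 0.3726). Ahnak was called lower in Tim4- than in Tim4+ KCs (log2 fold change -1.24, adjusted p = 0.002262). In AMs none of the 12 partners was called in CD11b- over CRE- AMs, where 2.51% of the genes tested were called lower. In CD11b+ over CRE- AMs (9.57% of genes called higher and 5.68% lower) Anxa3 and Anxa11 were called higher and Anxa6 lower. Anxa3 was higher in CD11b+ than in CD11b- AMs (508 ± 24.0 and 125 ± 28.6 CPM, log2 fold change 2.01, SE 0.13, adjusted p = 5.88e-10) and Anxa6 lower (41.5 and 109.7 CPM, -1.41, adjusted p = 4.421e-09).

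Of 6 receptors of S100A8 and S100A9, Cd14, the co-receptor of Toll-like receptor 4, was at 469 ± 86.7 CPM in CRE- AMs, 502 ± 101.9 CPM in CD11b- AMs and 1147 ± 207 CPM in CD11b+ AMs. It was the only receptor called between the CRE+ AM groups (log2 fold change 1.18, SE 0.14, adjusted p = 2.775e-06, edgeR). Cd36, a fatty acid receptor, was called higher in CD11b+ over CRE- AMs as well. Tlr4 was at 253, 287 and 329 CPM in the 3 AM groups, a difference of 0.19 between the CRE+ groups that did not pass (adjusted p = 0.09378). Ager, which encodes RAGE, reached a mean of at most 2.42 CPM in any group. In KCs no receptor was called between any pair of groups, although Cd14 was lower in both CRE+ groups by less than the fold limit (log2 fold change -0.85 and -0.79, adjusted p = 0.0003947 and 0.0002337).

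The plasminogen system, served by S100A10, had 5 of 7 genes tested in AMs. Plaur, the urokinase receptor gene, was at 601, 478 and 663 CPM in CRE-, CD11b- and CD11b+ AMs and at 11.4 CPM in CRE- KCs (CRE- KCs over CRE- AMs, log2 fold change -5.68, SE 0.16, adjusted p = 5.548e-13, edgeR). In KCs no gene of this list was called in a CRE+ group over CRE- KCs. Serpinb2 was called lower in Tim4- than in Tim4+ KCs (log2 fold change -5.63, adjusted p = 0.01483, edgeR) with overlapping ranges. Its median was 2.48 CPM (0.709 to 42.1) in Tim4+ KCs, and 4 of 6 Tim4- KC samples had no read, so the size of this change is uncertain.

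The genes whose log2 CPM followed a member most closely over the 33 samples were read among 9238 genes with a mean of at least 10 CPM in a group (9239 for S100a4). For S100a8 these were Cxcr2 (Pearson's r = 0.979), H60c (0.972) and Klk1b11 (0.968), and for S100a9 Tarm1 (0.967), Ceacam10 (0.967) and Cyp21a1 (0.965). For S100a10 they were its partner Anxa2 (0.994), Hvcn1 (0.993) and Anxa1 (0.991). S100a11 was followed by Dusp5 (0.986), Tmem238 (0.982) and Sh3bgrl3 (0.980), S100a6 by Hacd2 (0.955), AA467197 (0.939) and Prdx6 (0.939), and S100a4 by Tnni2 (0.891), S100a6 (0.887) and Alcam (0.863). These values describe a pattern set mainly by the contrast of tissues and groups, in samples that share libraries.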

How the data were processed

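Per the labels and the study's methods, reads were trimmed with Trimmomatic 0.35, checked with FastQC 0.11.4, mapped to mm10 with TopHat2 2.1.0 and counted with HTSeq-count, and the authors deposited raw counts per gene symbol. The strand setting and annotation are not given in the sources used here. Tally entries (5 per file, 5.88% to 10.1% of reads) were left out. Counts were compared with edgeR 4.0.16 in R 4.3.3 (TMM factors, filterByExpr, quasi-likelihood test, Benjamini-Hochberg adjustment over all genes tested), on the 11 CRE- samples, the 18 KC samples or the 15 AM samples. TMM factors were 0.869 to 0.903 in CD11b+ AMs. A gene was called at an adjusted p below 0.05 with a change of more than 1 log2 unit. SEs were derived from the F statistic. CPM used TMM factors over all 33 samples, and log2 CPM a prior count of 0.5. Transcript lengths were means of GENCODE M21 transcripts paired with RefSeq mRNAs, and 95.5% of symbols matched that annotation. Ratios of reads were tested with scipy 1.17.1. The fits were tested on simulated data. Members, lists and comparisons were chosen with earlier results of these data known. Named genes followed a rule of fixed lists, neighbours within 100 kb and the 3 most similar genes, and S100a1 and S100a13 were left out of the last. Tlr4, Ager, Serpinb2 and single marker genes were named outside this rule, after their values were seen. Alternatives were RLE factors, other filters, limma-voom 3.58.1, DESeq2 1.42.0, no fold limit, other samples in the fit, sex, replicate blocks and each replicate left out. Protein sequences were not used here, and 1 result is not reported here.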

Additional observations from a re-analysis of the deposited data

Results flagged for a closer look

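Of 48 sets of values (8 members in 6 groups), 8 had a sample set apart from its group by Dixon's criterion, where chance alone gives about 1 in 20. S100a9 in CRE+ Tim4- KC replicate 1 was at 4.99 CPM (50 reads) against 0 to 0.824 CPM in the other samples, and S100a13 in the same library, the shallowest, at 56.1 CPM against 21.3 to 32.5 CPM. S100a11 in CRE+ CD11b- AM replicate 4 was at 648 CPM against 454 to 472 CPM, and S100a10 in CRE+ CD11b- AM replicate 2 at 349.6 CPM against 387 to 401 CPM. S100a8 in CRE+ CD11b+ AM replicate 1 was at 5235 CPM against 4098 to 4389 CPM. In CRE+ Tim4+ KC replicate 4, S100a4 was at 1.70 CPM against 0.405 to 0.829 CPM and S100a6 at 3.49 CPM against 0.984 to 1.92 CPM. S100a9 in CRE- KC replicate 4 was at 0.731 CPM (14 reads) against 0.0863 to 0.298 CPM.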

How the results depend on the processing

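Across 1208 repeats of the 49 single-member differences 1179 kept their direction and their side of the threshold. In 11 the sign turned, all for S100a13 or S100a4 differences in Tim4- KCs that were not called in any of these fits. S100a13 in Tim4- over CRE- KCs (0.12 as reported) was -0.0024 with limma-voom, and from -0.1092 (without Tim4- replicate 1) to 0.2144 with 1 replicate left out. S100a13 in Tim4- over Tim4+ KCs (0.01) was -0.1214 with limma-voom, -0.0451 with the replicate block and -0.0143 with sex as a covariate, and from -0.2176 (without Tim4- replicate 1) to 0.1062 with 1 replicate left out. S100a4 in Tim4- over Tim4+ KCs (0.20) was -0.0438 with limma-voom, and from -0.0253 (without Tim4- replicate 1) to 0.5484 with 1 replicate left out. The other 18 changes were S100a4 near the threshold, or S100a1, S100a10 and S100a13 once the fold limit was dropped. The cause of these changes was not tested. Of 176 repeats of the counts of members called, 170 stayed within 1.5 times. With at least 10 counts in every sample, which removes scarce members from the test, 4 rather than 7 members were called for CRE- KCs against CRE- AMs and 1 rather than 2 for Tim4- against CRE- KCs. Without the fold limit the counts became 2 rather than 1 for Tim4+ against CRE- KCs, 2 rather than 1 for Tim4- against Tim4+ KCs, 7 rather than 4 for CD11b+ against CRE- AMs and 6 rather than 3 for CD11b+ against CD11b- AMs. Leaving out 1 replicate at a time gave 6 to 7, 1 to 1, 2 to 3, 1 to 1, 4 to 4, 4 to 4 and 3 to 4 calls in the 7 comparisons. S100a4 in Tim4- over CRE- KCs passed with DESeq2 (adjusted p = 0.03859), with all 33 samples (0.01353) and without replicate 6 of either group (0.0485 and 0.04195), within a range of 0.01353 to 0.1491, and S100a4 in CRE- KCs against CRE- AMs did not pass without a filter (0.06486, range 0.006359 to 0.06788).

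Replicate numbers are shared between groups without a stated pairing. Deviations of same-numbered Tim4- and Tim4+ KC samples correlated at 0.0936 to 0.203, over 0.1 in 5 of 6 pairs, and each of the 6 best with its own number, while in the other comparisons at most 2 pairs were over 0.1. Of 5 CD11b+ AM samples, 4 correlated best with their own number among CD11b- AMs (same-numbered pairs at 0.0319 to 0.0871), and 4 also among CRE- AMs. The test of the S100a9 to S100a8 ratio took the samples as unpaired. The replicate block gave 7, 1, 2, 1, 4, 4 and 3 calls, the numbers found without it. The depth limits S100a4, S100a6, S100a8 and S100a9 in KCs, where a library has at most 93 reads of any of them.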
